A study of Mus musculus with 8 samples.

Results

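The interferon-stimulated genes described here are 42 genes, chosen by symbol as well-known targets of the interferon response, of the 55416 genes in the count table. All 42 were matched to a row of the table through the GENCODE mouse annotation. Bulk RNA-seq measured their mRNA in dorsal epidermis of mice at postnatal day 4, in 4 control libraries with the genotype label WT (A1, B1, C1 and C6) and 4 libraries labelled RoraEKO (A3, B4, C2 and C3), to ask how the epidermal transcriptome differs when the nuclear receptor ROR alpha is removed from it. RoraEKO mice carry a floxed *Rora* allele and K14-Cre, a Cre recombinase driven by the keratin 14 promoter of basal keratinocytes, so that other cells of the epidermis, such as Langerhans cells, dendritic epidermal T cells and melanocytes, keep the gene. The study describes its controls as littermates, and whether those sequenced carried the floxed allele or Cre was not given in the sources used here. A brief heat treatment freed the epidermis from the dermis, and no sorting of cells was described.

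Interferons are secreted proteins that bind receptors on the cell surface. The receptors signal through JAK kinases to STAT transcription factors, which enter the nucleus and bind the interferon-stimulated response element (ISRE), together with IRF9, or the gamma-activated site (GAS). The genes switched on in this way include sensors of viral nucleic acid, enzymes and membrane proteins that block steps of the viral life cycle, and the antigen processing machinery, and in keratinocytes they form part of the barrier against infection. IRF7 is itself induced and drives further type I interferon production.

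The libraries held between 17286903 and 26705533 counts, so that 3 counts, taken as the floor of detection, correspond to 0.113 to 0.196 CPM, the count scaled to 1000000 counts of the TMM-adjusted library size. After genes with low counts were left out, 13147 genes entered edgeR's quasi-likelihood test, and a gene was called at a Benjamini-Hochberg adjusted p below 0.05 and a fold change above 1.5. *Rora*, counted over the whole gene, was at 158, 193, 187 and 309 CPM in the controls and at 154, 189, 237 and 206 CPM in the libraries labelled RoraEKO (log2 fold change -0.11, standard error (SE) 0.245, edgeR adjusted p = 0.877), so the count over the whole gene did not separate the genotypes and every direction given here rests on the labels. *Xist*, the RNA that coats the inactive X chromosome of females, reached 416 CPM in control C1 and 527 CPM in control C6 but no more than 0.0546 CPM in the other 6 libraries. Sex and genotype were therefore not balanced. Of the 7 keratinocyte markers, the suprabasal keratins *Krt1* (19686 to 38600 CPM in the controls, 44216 to 52399 CPM in the libraries labelled RoraEKO) and *Krt10* (17165 to 27549 and 34246 to 46176 CPM) did not overlap between genotypes and the other 5 did. None of the 40 tested genes among 54 markers of epidermal, immune, dermal, endothelial, melanocyte and erythroid cells was called. In bulk tissue, fewer cells of a type and less RNA per cell cannot be told apart.

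Of the 42 genes, 23 had enough counts to be tested and 19 did not. Both cutoffs were passed by 5 genes. *Parp12*, *Ifi35*, *Ifitm2* and *Mx1* rose in the libraries labelled RoraEKO, and *Irf7* fell. Among all genes tested, 2.30% were called higher and 3.22% lower, or 5.51% in either direction. The values of the 2 genotypes did not overlap for 6 of the 23 tested genes, the 5 called ones and *Ifi27*, against 12.9% of all genes tested. The RoraEKO libraries were the higher ones for 5 of them (5.40% of all genes tested) and the lower ones for 1 (7.54%). The median log2 fold change over the 23 tested genes was 0.22, with 15 above 0 and 8 below, and the median over all genes tested was -0.04, with 5777 above 0 and 7370 below. The 18 tested genes that were not called had log2 fold changes between -0.46 and 1.85 and adjusted p between 0.0966 and 0.998.

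**Figure D1:**
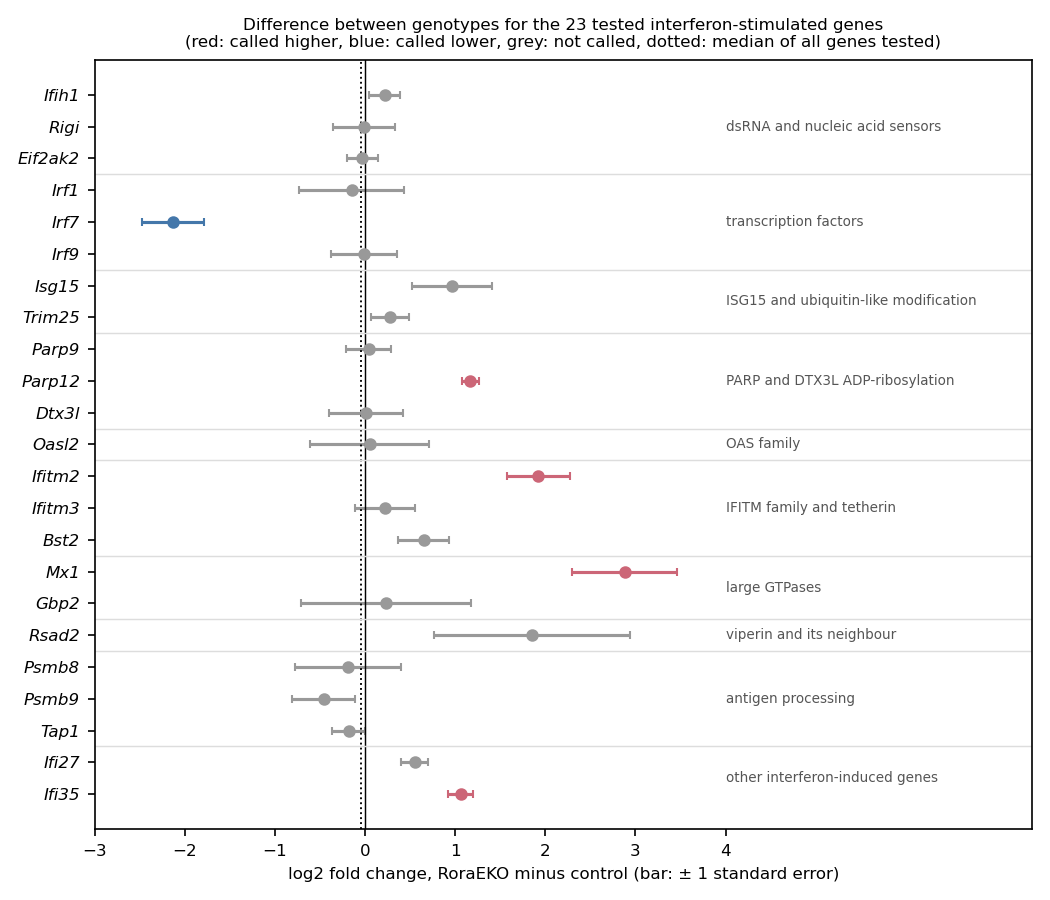
Difference in mRNA between the libraries labelled RoraEKO and the controls for the 23 tested interferon-stimulated genes, grouped by role. Points are log2 fold changes from edgeR, bars are ± 1 SE, and the dotted line is the median of all genes tested (-0.04). *Irf7* lies alone on the left at -2.13, while the genes on the right run up to *Mx1* at 2.88 and most grey points sit near 0.

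The upstream sequence of the called genes is shown because the ISRE and the GAS are the elements through which interferon acts on these genes. RefSeq gave the 250 bases before the gene start (build GRCm38.p6) for 32 of the 42 genes, among them 4 of the 5 called ones. *Mx1* had no entry. The ISRE core, searched as GAAA, 2 bases of any kind and GAAA again on either strand, was in that window in 936 of 27025 genes (3.46%) and in 10 of the 32 (31.2%). Of the called genes *Ifitm2* held it, and *Irf7*, *Parp12* and *Ifi35* did not. The GAS, TTCNNNGAA, was in 8.13% of all windows and in 6 of the 32 (18.8%), and none of the 4 called genes held it. A binding sequence of the ROR receptors, TAGGTCA, was in 2.55% of all windows and, among the 32, in *Herc6*. A match of letters is not a site shown to be bound, and a window without a match says nothing of other positions. The called genes are given below from base 250 to base 1 before the start, and *Isg15*, *Ifit1* and *Rsad2*, which were not called, are given around their matches for comparison. All are written 5′ to 3′ on the strand of the gene with the ISRE core in capitals.
Irf7, chr7:141266425-141266674, minus strand: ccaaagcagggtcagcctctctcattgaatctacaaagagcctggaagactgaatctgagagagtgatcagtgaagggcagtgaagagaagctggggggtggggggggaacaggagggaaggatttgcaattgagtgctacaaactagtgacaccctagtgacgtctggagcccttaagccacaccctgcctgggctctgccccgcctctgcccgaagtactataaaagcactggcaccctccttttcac
Ifitm2, chr7:140955962-140956211, minus strand: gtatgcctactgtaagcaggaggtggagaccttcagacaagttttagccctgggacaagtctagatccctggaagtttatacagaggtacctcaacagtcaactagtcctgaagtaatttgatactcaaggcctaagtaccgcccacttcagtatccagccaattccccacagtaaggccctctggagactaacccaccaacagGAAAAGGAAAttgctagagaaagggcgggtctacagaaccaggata
Parp12, chr6:39118350-39118599, minus strand: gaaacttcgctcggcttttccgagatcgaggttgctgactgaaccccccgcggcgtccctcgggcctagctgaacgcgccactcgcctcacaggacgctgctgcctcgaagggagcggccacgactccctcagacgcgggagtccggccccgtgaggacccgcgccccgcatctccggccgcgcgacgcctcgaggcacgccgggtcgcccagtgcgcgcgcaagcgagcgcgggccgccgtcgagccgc
Ifi35, chr11:101448162-101448411, plus strand: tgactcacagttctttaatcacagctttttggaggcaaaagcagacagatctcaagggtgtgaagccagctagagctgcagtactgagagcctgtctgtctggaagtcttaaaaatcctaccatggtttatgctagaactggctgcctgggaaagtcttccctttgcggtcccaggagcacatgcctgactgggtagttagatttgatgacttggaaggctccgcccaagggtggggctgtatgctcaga
Isg15, chr4:156200860-156200911, minus strand: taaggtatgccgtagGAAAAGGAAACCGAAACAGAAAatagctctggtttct
Ifit1, chr19:34640770-34640828, plus strand: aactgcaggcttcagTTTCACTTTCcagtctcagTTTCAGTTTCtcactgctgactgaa
Rsad2, chr12:26456548-26456587, minus strand: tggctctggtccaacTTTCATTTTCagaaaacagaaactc

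The transcription factors held the only gene called lower. *Irf7* (GRCm39 chr7:140842619-140846398), the interferon regulatory factor that amplifies type I interferon production, was at 11.5, 17.8, 15.9 and 30.9 CPM in the controls (A1, B1, C1, C6) and at 4.57, 3.16, 5.83 and 3.89 CPM in the libraries labelled RoraEKO (A3, B4, C2, C3), an order kept throughout. Every library labelled RoraEKO lay below every control. The mean fell from 19 ± 8.34 CPM to 4.36 ± 1.13 CPM (± SD, 4 libraries in each genotype), with a log2 fold change of -2.13 (SE 0.347, edgeR adjusted p = 0.00441), or 4.37-fold. The call was made in all 18 other fits, with adjusted p between 2.78e-08 and 0.0231. *Irf7* shares bases with *Phrf1* on the opposite strand, and the strand setting of the counting was not given in the sources used here. *Phrf1* was at 48.5 ± 2.17 CPM in the controls and 57.3 ± 3.26 CPM in the libraries labelled RoraEKO (log2 fold change 0.24, edgeR adjusted p = 0.214). *Irf9*, the DNA-binding partner of the STAT proteins, was at 15.2 ± 5.46 and 15.1 ± 4.68 CPM (log2 fold change -0.01, SE 0.364, adjusted p = 0.996). It shares bases on its own strand with *Rnf31*. *Irf1*, which responds to type II interferon, was at 1.29 ± 0.865 and 1.17 ± 0.551 CPM (log2 fold change -0.15, adjusted p = 0.937). Of the 3 transcription factors, *Irf7* alone was called.

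**Figure D2:**
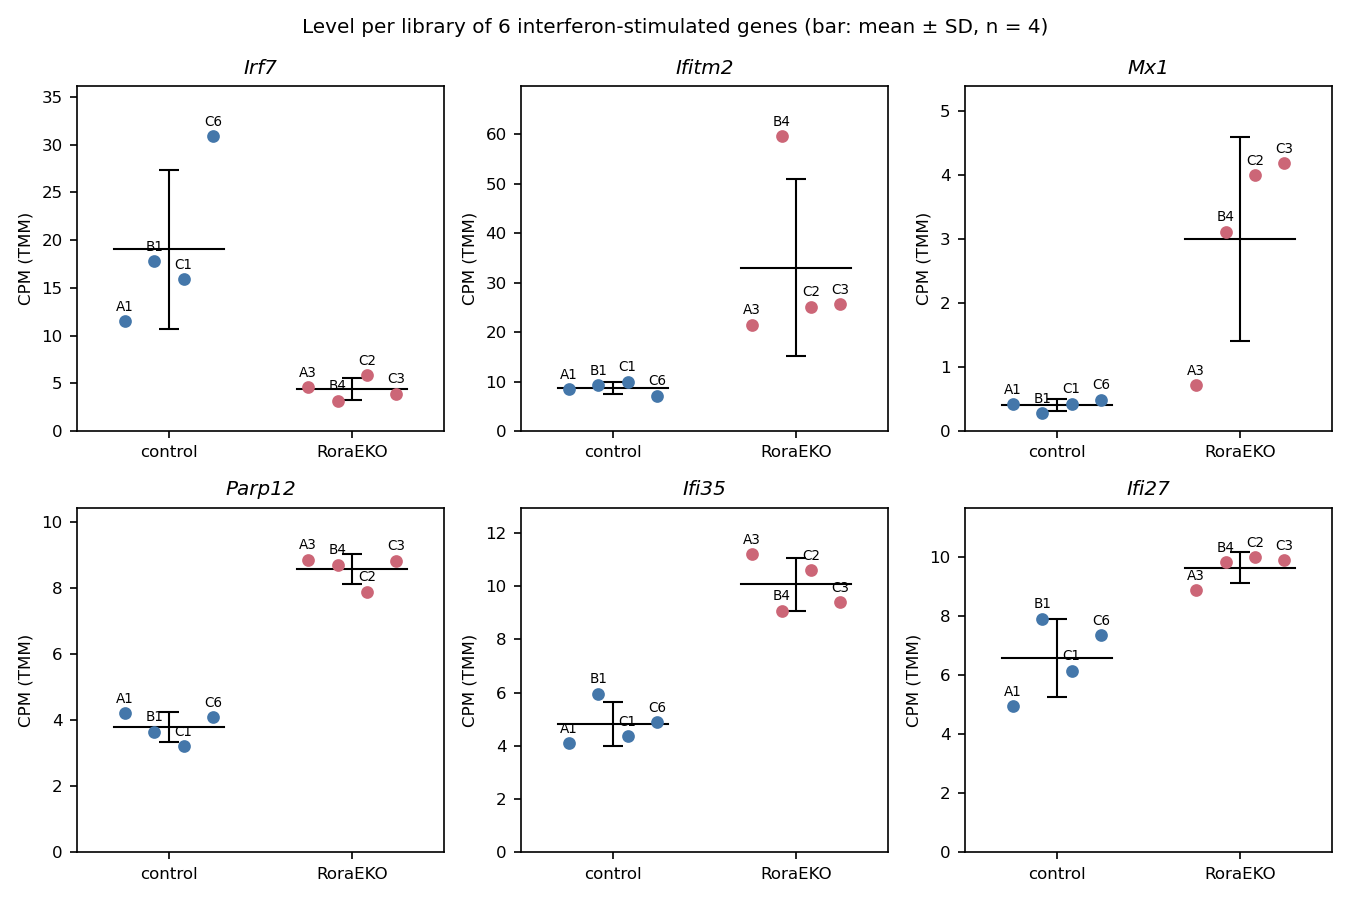
Normalised expression in CPM of 6 interferon-stimulated genes in each of the 4 control and 4 RoraEKO libraries, with the mean and SD as bars. The RoraEKO libraries all lie below the controls for *Irf7* and above them for *Ifitm2*, *Mx1*, *Parp12*, *Ifi35* and *Ifi27*, with replicate B4 at 59.7 CPM in *Ifitm2* and A3 at 0.718 CPM in *Mx1*.

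None of the sensors of viral RNA and DNA was called. *Eif2ak2*, which encodes PKR, the kinase that halts translation on binding viral RNA, had the highest level per kilobase among them. It was at 4.27 ± 0.633 CPM in the controls and 4.19 ± 0.795 CPM in the libraries labelled RoraEKO (log2 fold change -0.03, SE 0.17, edgeR adjusted p = 0.970), and its direction turned under other settings. *Ifih1*, which encodes MDA5, was at 3.67 ± 0.725 and 4.28 ± 0.57 CPM (log2 fold change 0.22, adjusted p = 0.667). *Rigi*, which encodes RIG-I, had a log2 fold change of -0.01 (adjusted p = 0.998). *Dhx58* (LGP2) and *Zbp1* did not reach the counts needed for a test.

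ISG15 is a ubiquitin-like protein that is joined to other proteins during the interferon response. *Isg15* was at 1.90, 0.82, 0.663 and 1.46 CPM in the controls and at 2.09, 1.36, 3.90 and 2.30 CPM in the libraries labelled RoraEKO. The genotypes overlapped in replicate B4, which lay below 2 of the controls. The mean was 1.21 ± 0.576 CPM against 2.41 ± 1.07 CPM (SD, n = 4 each), a difference that did not pass the test (log2 fold change 0.97, SE 0.444, edgeR adjusted p = 0.262). *Trim25*, a ubiquitin ligase that acts with RIG-I, was at 33.8 ± 6.1 and 41.0 ± 9.22 CPM (log2 fold change 0.28, SE 0.209, adjusted p = 0.504). *Usp18*, which removes ISG15, and *Herc6*, which attaches it, were not tested.

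Of the enzymes of ADP-ribosylation and their partner, *Parp12* rose. *Parp12* (GRCm39 chr6:39063342-39095573), an antiviral mono-ADP-ribosyltransferase, was at 4.22, 3.66, 3.22 and 4.09 CPM in the controls and at 8.87, 8.71, 7.90 and 8.84 CPM in the libraries labelled RoraEKO. The values lay close together within each genotype and far apart between them. The mean rose from 3.80 ± 0.455 to 8.58 ± 0.458 CPM (± SD, 4 libraries in each genotype), with a log2 fold change of 1.17 (SE 0.095, edgeR adjusted p = 0.00193), or 2.25-fold, and the call was made in all 18 other fits. *Parp9* and *Dtx3l*, which encode partners in one complex and lie on opposite strands with shared bases, had log2 fold changes of 0.04 and 0.01 (adjusted p = 0.975 and 0.994). *Parp14* was not tested.

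The IFITM proteins sit in membranes and hinder the entry of viruses, and tetherin (*Bst2*) holds budding virions on the cell. *Ifitm2* (GRCm39 chr7:140534738-140536228) was at 8.49, 9.29, 10 and 7.13 CPM in the controls and at 21.5, 59.7, 25.1 and 25.7 CPM in the libraries labelled RoraEKO. Every library labelled RoraEKO lay above every control, with replicate B4 far above the others. The mean rose from 8.74 ± 1.24 to 33.0 ± 17.9 CPM (± SD, 4 libraries in each genotype), with a log2 fold change of 1.92 (SE 0.349, edgeR adjusted p = 0.00739), or 3.78-fold. Without replicate B4 the log2 fold change was 1.46 (adjusted p = 0.00171). *Krt14*, the basal keratinocyte keratin, was also highest in B4, at 706 CPM against 61.1 to 203 CPM in the controls and 96.2 to 187 CPM in the other libraries labelled RoraEKO. The part of basal cells in the *Ifitm2* result was not tested. *Ifitm3* was at 1.61 ± 0.545 and 1.86 ± 0.501 CPM (log2 fold change 0.22, adjusted p = 0.824), *Bst2* was at 0.80 ± 0.309 and 1.28 ± 0.194 CPM (log2 fold change 0.65, adjusted p = 0.358), and *Ifitm1* was not tested. The IFITM genes resemble each other in sequence, and RSEM divides reads that fit several genes between them by estimate, so that part of a value may belong to a relative.

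The large GTPases included *Mx1*, with the largest rise of the 4 genes called higher. *Mx1* (GRCm39 chr16:97248235-97264107), whose protein blocks the replication of influenza and related viruses, had 11, 5, 9 and 13 counts in the controls and 11, 76, 83 and 84 counts in the libraries labelled RoraEKO. This is 0.419, 0.273, 0.426 and 0.488 CPM in the controls and 0.718, 3.12, 4.00 and 4.19 CPM in the libraries labelled RoraEKO. The genotypes did not overlap in CPM, although replicate A3, the smallest library, was near the controls. The mean rose from 0.401 ± 0.091 to 3.01 ± 1.60 CPM (± SD, 4 libraries in each genotype), with a log2 fold change of 2.88 (SE 0.586, edgeR adjusted p = 0.0098), or 7.37-fold. Without A3 the log2 fold change was 3.25. *Gbp2*, a guanylate-binding protein, was at 0.757 ± 0.641 and 0.905 ± 0.825 CPM (log2 fold change 0.23, adjusted p = 0.937), and *Gbp3* and *Mx2* were not tested.

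None of the OAS and IFIT genes, nor *Rsad2* or *Cmpk2*, was called. *Oasl2* alone of the 5 OAS genes was tested, at 1.41, 0.273, 0.426 and 0.563 CPM in the controls and 0.718, 0.164, 1.11 and 0.849 CPM in the libraries labelled RoraEKO. The genotypes overlapped (log2 fold change 0.05, SE 0.657, edgeR adjusted p = 0.988), and the direction turned under other settings. *Rsad2*, which encodes viperin, an enzyme that makes a chain-terminating nucleotide, was at 0.723, 0.273, 0.0947 and 0.638 CPM in the controls and 0.653, 0.0822, 3.52 and 2.2 CPM in the libraries labelled RoraEKO. RoraEKO replicates C2 and C3 were above every control, and A3 and B4 were within or below the control range (log2 fold change 1.85, SE 1.09, adjusted p = 0.326). *Cmpk2*, the neighbour of *Rsad2* that supplies its nucleotide substrate, was not tested.

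The antigen processing genes had no call, and all 3 log2 fold changes were below 0. *Tap1*, a chain of the peptide transporter of the endoplasmic reticulum, was at 8.53 ± 1.06 and 7.56 ± 1.58 CPM (log2 fold change -0.18, SE 0.184, edgeR adjusted p = 0.709). The immunoproteasome subunits *Psmb8* and *Psmb9* had log2 fold changes of -0.19 and -0.46 (adjusted p = 0.918 and 0.653).

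Among the remaining interferon-induced genes, *Ifi35* rose and *Ifi27* did not pass the test. *Ifi35* (GRCm39 chr11:101339221-101352693), a leucine zipper protein, was at 4.11, 5.96, 4.36 and 4.88 CPM in the controls and at 11.2, 9.08, 10.6 and 9.39 CPM in the libraries labelled RoraEKO. No library of either genotype reached the range of the other. The mean rose from 4.83 ± 0.819 to 10.1 ± 1.01 CPM (± SD, 4 libraries in each genotype), with a log2 fold change of 1.06 (SE 0.136, edgeR adjusted p = 0.00495), or 2.09-fold. *Ifi35* shares bases with *Vat1* on the opposite strand, which was at 207 ± 32.1 and 235 ± 20.7 CPM (log2 fold change 0.18, adjusted p = 0.587). *Ifi27*, which encodes a mitochondrial protein, was at 4.95, 7.92, 6.15 and 7.36 CPM in the controls and 8.87, 9.82, 10 and 9.89 CPM in the libraries labelled RoraEKO. The genotypes did not overlap, but the difference missed the threshold (log2 fold change 0.55, SE 0.154, adjusted p = 0.0966). *Ifi44*, *Xaf1* and *Rtp4* were not tested.

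The sex of the controls was looked at by leaving libraries out. Without control replicates C1 and C6, the libraries with *Xist*, *Irf7* and *Parp12* kept their calls against the 2 controls left, whereas *Ifi35* (log2 fold change 1.05, edgeR adjusted p = 0.0539), *Ifitm2* (1.95, 0.0755) and *Mx1* (3.13, 0.0799) did not, with log2 fold changes close to those over all 8 libraries. All 5 genes kept their calls in each of the 8 fits that left out a library.

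Levels between genes were compared as CPM per kilobase of exon. In the controls *Ifitm2* was highest at 8.75, followed by *Trim25* at 5.86, *Irf7* at 5.03, *Irf9* at 2.62 and *Isg15* at 1.55 CPM per kilobase. In the libraries labelled RoraEKO *Ifitm2* stood at 33 and *Trim25* at 7.12 CPM per kilobase, and *Irf7*, at 1.15, lay below *Isg15* at 3.08, *Ifi35* at 2.64 and *Irf9* at 2.6. *Mx1* moved from 0.119 to 0.892 CPM per kilobase. The genes without a test filled most of the lower end of the order, down to *Oasl1* at 0.00364 and *Ifi44* at 0 CPM per kilobase in the controls.

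The 19 genes without a test had between 8 and 98 counts in all 8 libraries together, and no library had more than 45. *Ifit3*, whose protein recognises foreign RNA together with IFIT1, had 5, 2, 2 and 3 counts in the controls and 2, 5, 25 and 45 counts in the libraries labelled RoraEKO. *Ifit1* had 11, 1, 5 and 8 counts in the controls and 2, 1, 29 and 31 in the libraries labelled RoraEKO. *Oasl1*, an OAS-like protein that limits IRF7 translation, had 1, 0, 0 and 0 counts in the controls and 0, 2, 13 and 15 in the libraries labelled RoraEKO. In these 3 genes the counts were highest in replicates C2 and C3, and among the other libraries control A1 reached 11 counts in *Ifit1*. *Cmpk2* (4, 1, 0 and 0 against 1, 0, 16 and 10 counts), *Usp18* (2, 1, 1 and 4 against 5, 3, 12 and 11) and *Ifit2* (9, 0, 4 and 3 against 1, 1, 11 and 14) had their highest counts in the same libraries. *Parp14* (23, 5, 9 and 12 against 0, 3, 20 and 26 counts), *Oas1a* (16, 2, 8 and 5 against 5, 4, 17 and 15) and *Ifitm1* (14, 1, 4 and 7 against 6, 0, 16 and 13) were also high in control replicate A1. *Xaf1* (8, 7, 6 and 8 against 5, 4, 4 and 4 counts) and *Ifi44* (0 in every control against 0, 5, 2 and 1) did not follow that order.

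Over the 19 genes the summed level was 4.80, 1.75, 3.55 and 3.15 CPM in the controls and 3.07, 2.01, 10.7 and 11.5 CPM in RoraEKO replicates A3, B4, C2 and C3. The level was thus within the control range in A3 and B4 and above it in C2 and C3, and 13 of the 19 genes had their highest CPM in C2 or C3. These 2 libraries share the title letter C. Over all genes their counts were the closest of any pair of libraries (chi-square per gene 30.8, against 47.4 for the next pair, controls B1 and C1). Endothelial markers summed to 0.273 to 0.751 CPM in the controls and to 0.457, 0.37, 3.23 and 1.80 CPM in A3, B4, C2 and C3. Fibroblast markers were highest in C2, at 10.4 CPM against 1.37 to 6.38 CPM in the controls. Markers of dendritic epidermal T cells summed to 17 to 44.3 CPM in the controls. They were at 42.5, 15.7, 40.7 and 66.8 CPM in A3, B4, C2 and C3. In the libraries labelled RoraEKO the sums for Langerhans cells (76.9 to 101 CPM) and for macrophages and neutrophils (3.33 to 8.67 CPM) stayed within the control ranges. Those ranges were 73.5 to 216 and 1.48 to 10.5 CPM. Erythroid markers summed to 47.8 to 334 CPM in the controls and to 618, 125, 1041 and 333 CPM in A3, B4, C2 and C3, and melanocyte markers to 25.2 to 56.2 CPM in the controls and to 31.6, 33.2, 18.5 and 17.3 CPM. The part of these cells in the result was not tested. Of the 4 markers of plasmacytoid dendritic cells, which make much interferon, *Siglech* had 12 counts, *Klk1* 6 and *Cox6a2* 55 over all 8 libraries. *Ccr9* was at 1.71 to 4.43 CPM in the controls and 3.07 to 4.68 CPM in the libraries labelled RoraEKO. When every gene with at least 1 count was fitted, none of the 19 was called by edgeR (adjusted p between 0.0763 and 0.972). Log2 fold changes were above 0 for 16 of them, and the median over all genes in that fit was 0.02. How often other genes with low counts lay above 0, or were highest in C2 or C3, was not examined.

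**Figure D3:**
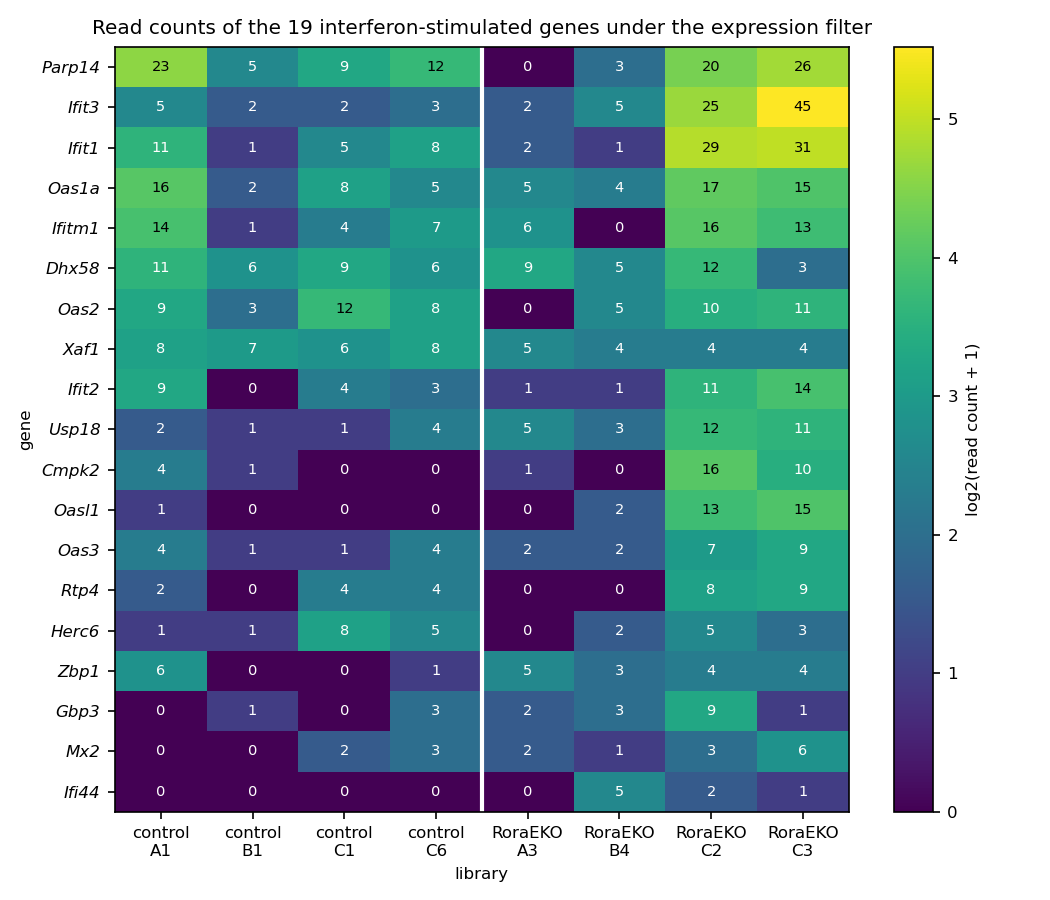
Counts of the interferon-stimulated genes with too few counts for a test, 1 row for each gene and 1 column for each library. RoraEKO replicates C2 and C3 hold the highest counts of most rows, such as *Ifit3* (25 and 45) and *Ifit1* (29 and 31), whereas A3 (2 and 2) and B4 (5 and 1) hold as few as the controls in both. Colour is log2 of the count plus 1.

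The rest of the pathway was described from 152 other genes found in the table, of which 73 were tested, 5 rose and 5 fell. Over all genes tested 2.30% were called higher and 3.22% lower. The median log2 fold change was 0.13 over the 73 and -0.04 over all genes tested. Transcripts of the ligands were almost absent. Of 21 interferon genes, 18 had 0 counts in every library and none had more than 3 counts in any library, a level at or under the floor of 0.113 to 0.196 CPM. None of the 5 tested receptor genes was called. *Ifnar1*, a chain of the type I receptor, was at 13.6 ± 1.4 and 10.7 ± 1.47 CPM (log2 fold change -0.34, edgeR adjusted p = 0.23). *Ifnlr1*, a receptor chain of the type III interferons, which act on epithelia, was at 16.0 ± 3.67 and 23.1 ± 8.66 CPM (log2 fold change 0.53, adjusted p = 0.359), and its partner *Il10rb* was at 17.6 and 23.4 CPM (log2 fold change 0.41, adjusted p = 0.368). *Ifngr1* and *Ifngr2* of the type II receptor had log2 fold changes of -0.20 and 0.12 (adjusted p = 0.764 and 0.683), and *Ifnar2*, at 0.576 and 0.45 CPM, was not tested.

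In the relay from receptor to nucleus, *Socs3*, a feedback inhibitor of JAK kinases, rose from 12.2 ± 4.75 to 54.3 ± 18.2 CPM (mean ± SD over 4 libraries each, log2 fold change 2.16, SE 0.373, edgeR adjusted p = 0.00441). It was the only 1 of 10 tested genes of the relay to be called. *Stat3*, a STAT of the interleukin-6 family, was at 76.0 ± 12.7 and 111 ± 5.81 CPM, with no overlap, an adjusted p of 0.0488 from edgeR and a log2 fold change of 0.55, under the fold cutoff. *Stat2* was at 12.9 ± 3.94 and 11.3 ± 3.25 CPM (log2 fold change -0.19, adjusted p = 0.815). *Socs1*, not tested, was at 0.609 and 0.238 CPM, and the genotypes did not overlap. Nor did they in *Tlr3*, at 0.157 and 0.0348 CPM, and *Apol9a*, at 0.25 and 0.916 CPM, neither of them tested. Of the 73 tested genes of the wider pathway, every library labelled RoraEKO lay above the controls in 7 and below them in 6. Over all genes tested these shares were 5.40% and 7.54%.

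Among the other interferon-induced genes the calls ran in both directions. *Ifi204*, a p200 family sensor of DNA, was at 0.571, 0.383, 0.237 and 0.450 CPM in the controls and 6.07, 3.74, 7.08 and 5.09 CPM in the libraries labelled RoraEKO. No value of either genotype came near the other, and the mean rose from 0.41 ± 0.139 to 5.50 ± 1.43 CPM (mean ± SD over 4 libraries each, log2 fold change 3.70, SE 0.288, edgeR adjusted p = 0.000309), or 13-fold. *Samhd1*, which depletes deoxynucleotides, rose from 23.2 ± 8.78 to 70.8 ± 21.8 CPM (log2 fold change 1.61, adjusted p = 0.0128). *Ly6e*, a membrane protein that restricts coronaviruses, fell from 58.9 ± 12.9 to 10.5 ± 2.17 CPM (log2 fold change -2.48, SE 0.22, adjusted p = 0.000238). These 3 genes and *Socs3* kept their calls in every fit that left out a library. The p200 genes share much sequence, so that reads may be divided between relatives.

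A further 5 calls were lost in some of the fits that left out a library. *Slfn2*, a schlafen gene, rose (0.474 ± 0.104 to 1.64 ± 0.795 CPM, log2 fold change 1.78, edgeR adjusted p = 0.0344) and *Ifi202b*, a p200 gene, fell (9.46 ± 1.31 to 4.47 ± 1.79 CPM, log2 fold change -1.09, adjusted p = 0.0388). *Tor3a*, an ATPase of the endoplasmic reticulum, also fell (33.0 ± 6.4 to 18.9 ± 2.39 CPM, log2 fold change -0.80, adjusted p = 0.0204). Of the 12 tested MHC class I presentation genes, *B2m*, the light chain of every class I molecule, fell (58.0 ± 12 to 34.1 ± 5.55 CPM, log2 fold change -0.77, adjusted p = 0.0352), as did *Nlrc5*, which drives class I transcription (12.4 ± 7.91 to 2.2 ± 1.41 CPM, log2 fold change -2.49, adjusted p = 0.0271). When a library was left out, *Ifi202b* kept its call only without A3 (adjusted p = 0.0068), *Slfn2* without control A1, A3 or C3 (0.0494, 0.0228 and 0.0407), *Tor3a* without control A1 or C2 (0.00406 and 0.0413), *B2m* without control A1 or C1 (0.0375 and 0.0202) and *Nlrc5* without control A1, control C1 or C3 (0.0149, 0.0411 and 0.0347). In the other leave-one-out fits the adjusted p of these genes reached 0.137 for *Ifi202b*, 0.111 for *Slfn2*, 0.0755 for *Tor3a*, 0.111 for *B2m* and 0.0715 for *Nlrc5*. All 5 also lost their calls with *Xist* as a covariate (log2 fold change 1.88 and adjusted p = 0.125 for *Slfn2*, -1.26 and 0.0549 for *Ifi202b*, -0.63 and 0.12 for *Tor3a*, -0.78 and 0.1 for *B2m*, and -1.92 and 0.117 for *Nlrc5*). The same held without the 2 control libraries that carry it (1.96 and 0.156, -1.20 and 0.114, -0.59 and 0.183, -0.75 and 0.0764, and -1.94 and 0.128 in the same order). Their directions were kept in both fits, in which *Ifi204*, *Samhd1*, *Ly6e* and *Socs3* kept their calls.

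**Figure D4:**
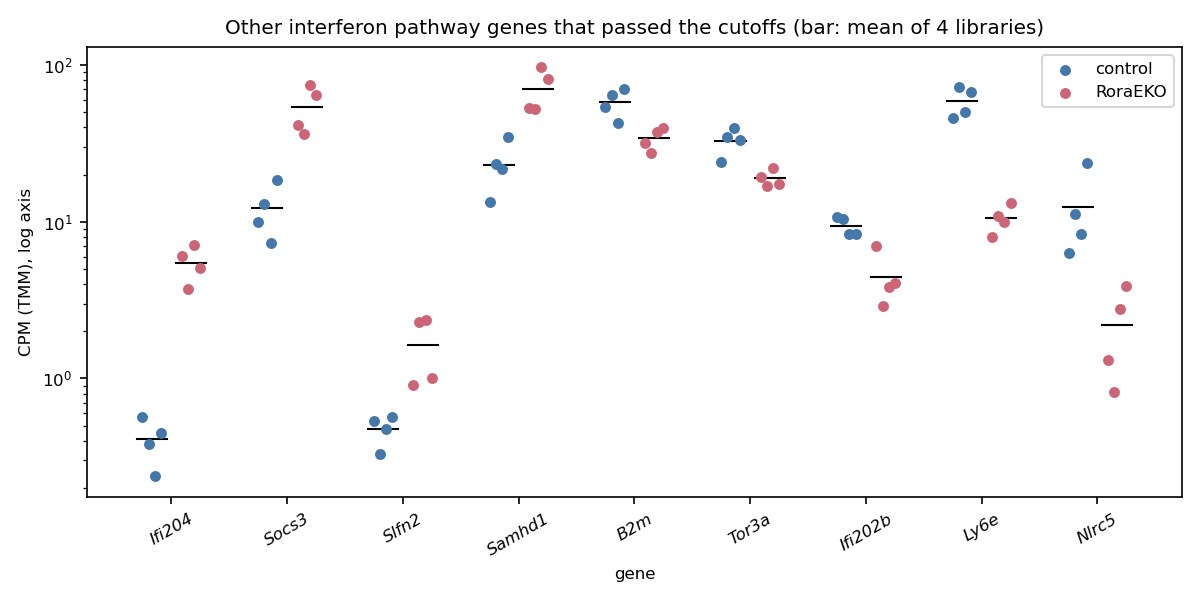
Normalised expression in CPM on a log axis of 9 called genes of the wider interferon pathway in each control and RoraEKO library, with the mean as a line. The 4 genes on the left lie higher in the RoraEKO libraries, most of all *Ifi204* (means 0.41 and 5.50 CPM), and the 5 on the right lie lower.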

How the data were processed

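RNA was taken from dorsal epidermis at postnatal day 4 (4 control and 4 RoraEKO libraries, grouped by GEO's labels). Per the labels and the study's methods, the authors used TruSeq Stranded mRNA libraries, bcl2fastq 2.20.0.422, Skewer, STAR 2.5.3a, RSEM and edgeR 3.28.0 with GRCm39, and the deposited values are expected counts per gene from RSEM. The annotation release and strand setting were not given in the sources used here. Identifiers were named with GENCODE release M39 (54749 of 55416 genes).

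Expected counts were rounded, genes with low counts were removed with filterByExpr, and TMM-normalised counts entered a quasi-likelihood fit and F test (edgeR 4.0.16, default legacy form, R 4.3.3), with Benjamini-Hochberg adjustment over 13147 genes. Calls required an adjusted p below 0.05 and a fold change above 1.5. CPM are counts scaled to 1000000 counts of the TMM-adjusted library size. SE is that of the difference in mean log2 CPM (prior count 2). The procedure was tested on simulated data with 12908 genes run, where 87.1% of 194 genes changed by 2 on the log2 scale were recovered and 6.11% of calls were unchanged genes. Alternatives were other normalisations, DESeq2 1.42.0, other edgeR tests, other filters, the title letter as a block, *Xist* as a covariate and leaving out libraries.

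The members and gene lists were chosen with earlier results of these data known. Described in full are called genes, genes whose genotypes do not overlap, and the member of each role with the highest CPM per kilobase. Genes named outside this rule, such as *Stat2* and those with low counts, were chosen after their values were seen, and some genes of the wider pathway are not reported here. The study gives 4 mice per genotype, which matches the number of libraries. The floor of 3 counts covers counting error only.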

Additional observations from a re-analysis of the deposited data

Results flagged for a closer look

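The 4 libraries of each genotype were examined for a library far from the rest, in 82 groups of 4 over 41 genes of the interferon-stimulated and wider pathway genes, and 4 groups held such a library. Chance gives about 1 in 20 groups. *Ifitm2* in RoraEKO replicate B4 was at 59.7 CPM, against 21.5 to 25.7 CPM in the other libraries labelled RoraEKO. *Parp12* in RoraEKO replicate C2 was at 7.9 CPM, against 8.71 to 8.87 CPM in the others, all above the controls. *Dtx3l* in RoraEKO replicate B4 was at 1.03 CPM, against 2.22 to 2.46 CPM. *Psmb8* in RoraEKO replicate C3 was at 2.15 CPM, against 0.771 to 0.914 CPM.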

How the results depend on the processing

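Of 132 counts and medians recomputed under other settings, 114 stayed within 1.5 times or the replicate spread of the value reported, as did the direction and call of 459 of 517 values of 29 named genes. Without the 2 control libraries that carry *Xist*, 1 of the interferon-stimulated genes was called higher and 1 gene of the wider pathway lower, and over all genes 147 were called higher and 167 lower. With *Xist* as a covariate 1 pathway gene was called lower and 182 genes in all were called higher, DESeq2 called 478 higher, and requiring 10 counts in every library left 3 pathway genes called higher. Leaving out each library gave 1 to 4 pathway genes called lower (1 without control B1 or C6, 3 without control C1, and 2 without each RoraEKO library in turn), 174 to 383 genes called higher (174 without control B1, 188 without C3) and 283 to 513 lower. The median log2 fold change of the interferon-stimulated genes was -0.01 to 0.41 with each library left out and 0.65 with all genes of at least 1 count. The latter fit added the 19 genes without a test, and its median over all genes was 0.02. *Eif2ak2* turned to 0.02 with all genes of at least 1 count and 0.04 without the *Xist* controls (-0.10 to 0.07 with each library left out), and *Oasl2* turned to -0.02 by library size alone, -0.31 with the covariate and -0.24 without the *Xist* controls (-0.20 to 0.71). The cause was not tested. The titles share the letters A, B and C across genotypes, and what the letter marks is not stated. With it as a replicate block 420 genes were called higher and 579 lower over all genes, 4 and 1 among the interferon-stimulated genes (median log2 fold change 0.15), and 6 and 5 in the wider pathway, where *Cgas* was added (log2 fold change 0.97, edgeR adjusted p = 0.00643).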

Other observations

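Relatives of the OAS genes described above, outside the rule for named genes and chosen after their values were seen, differed in level. *Oas1f* was at 64.6 CPM per kilobase over the 8 libraries, against 0.638 for *Oas1c* and 0.121 for *Oas1b*. It was at 86.7 ± 15.1 CPM in the controls and 105 ± 31.4 CPM in the libraries labelled RoraEKO (n = 4 each), and was not called (log2 fold change 0.27, edgeR adjusted p = 0.582). *Cxcl10*, an interferon-induced chemokine without enough counts for a test, was at 0.266, 0.383, 0 and 0.263 CPM in the controls and at 0.261, 0, 1.98 and 0.899 CPM in RoraEKO replicates A3, B4, C2 and C3, with its highest values in C2 and C3. *Cgas*, the sensor of cytosolic DNA, was at 1.33, 3.55, 4.50 and 4.80 CPM in the controls and 2.94, 5.67, 10 and 9.09 CPM in A3, B4, C2 and C3 (log2 fold change 0.97, edgeR adjusted p = 0.296). It was higher in the RoraEKO libraries within each title letter and was called with the letter as a block (adjusted p = 0.00643), but in none of the other 17 fits. *Sting1*, its downstream adaptor, was at 0.580 ± 0.323 and 0.175 ± 0.145 CPM and was not tested.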
